A study of Mus musculus with 6 samples.

Results

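G1 cyclins and CDK inhibitors were followed in untreated mouse salivary gland organoids (mSGOs) between day 5 and day 7 of culture. The set holds 10 genes chosen by name, the D-type cyclins *Ccnd1*, *Ccnd2* and *Ccnd3*, the E-type cyclins *Ccne1* and *Ccne2*, the Cip/Kip inhibitors *Cdkn1a* (p21), *Cdkn1b* (p27) and *Cdkn1c* (p57), and the INK4 inhibitors *Cdkn2a* and *Cdkn2b* (p15). All 10 were found among the 47643 gene IDs of the count files, and all 10 were among the 15792 genes tested. The organoids are multicellular structures grown in Matrigel from submandibular gland spheres that were first cultured and then split into single cells, taken from 8 to 12 weeks old C57BL/6 mice. They were kept in WRY medium, which carries Wnt3a- and R-spondin1-conditioned medium beside EGF, FGF2, N2, insulin, dexamethasone and the ROCK inhibitor Y27632, and both days share this medium and carry no transgene or irradiation. Organoids of 3 mice were collected on each day, and a mouse number names the same mouse on both days. This gave 3 libraries per day and 6 in all, made with QuantSeq (Lexogen), a kit that reads only the 3′ end of polyadenylated transcripts. The question these samples allow is how the transcripts that set entry into S phase stood on the later day relative to the earlier one.

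Mitogens raise D-type cyclins, which activate CDK4 and CDK6 and start the phosphorylation of the retinoblastoma protein family. This frees E2F factors, which transcribe E-type cyclins, the activators of CDK2, together with the genes of DNA replication. INK4 proteins block CDK4 and CDK6, while Cip/Kip proteins block CDK2 complexes, and much of this control acts on protein turnover and phosphorylation, which RNA counts do not read.

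The libraries held between 1918198 and 2837397 counts in genes, so that the floor of 3 counts corresponded to between 1.06 and 1.56 CPM, the usual unit of counts relative to library size, on the raw totals. Reads assigned to no gene made up 13.7% to 14.4% of each day 5 file and 9.12% to 9.74% of each day 7 file, a difference that cannot be told apart from the day. All 8 ductal epithelial markers were detected on both days. Of these, *Krt19* was past the threshold as higher (log2 fold change 1.78 ± 0.21) and *Krt8* as lower (-0.65 ± 0.20). Of 10 macrophage markers 7 were at 0 in every library, and the list summed to 8.03 to 10.7 CPM on day 5 and 9.30 to 13.9 CPM on day 7. Its 1 gene past the threshold was *Cd68*, at 1.00 ± 0.64 CPM on day 5 and 5.27 ± 1.97 CPM on day 7. The 8 fibroblast markers had 19 counts and the 8 endothelial markers 22 counts over all 6 libraries. A pair of other marker lists moved with the day. The summed level of 8 markers of cycling cells was 2027 to 2351 CPM on day 5 and 793 to 1156 CPM on day 7, with all 8 past the threshold as lower. The summed level of 12 markers of stratified squamous epithelium was 3092 to 4770 CPM on day 5 and 5538 to 8181 CPM on day 7, with 8 of 12 higher. In bulk RNA, fewer cells of a type and less RNA per cell cannot be told apart, and the part of these shifts in the values below was not tested.

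*Ccne2* was the 1 member of 10 that passed the threshold, and it fell, in a fit with day as the only term. The threshold asked for an adjusted p below 0.05 in the edgeR quasi-likelihood test over all genes and for a log2 fold change beyond 0.6 in either direction. Across the 15792 genes tested, 12% passed, with 7.22% higher and 4.82% lower on day 7. The signs of the 10 fitted changes were split evenly, with 5 above and 5 below 0, and their median log2 fold change was -0.02 beside -0.01 over all genes. On TMM-scaled levels, days did not overlap for *Ccnd2*, which was higher on day 7 in all 3 mice, and for *Ccne2*, which was lower in all 3. For *Ccnd2* this rests on a narrow gap given below. Such separation was seen in 31% of all genes tested, so that 2 of 10 is no more than the background gives. An unadjusted p under 0.05 was reached by *Ccne1*, *Ccne2* and *Cdkn1a*. This fit does not pair the libraries of a mouse. With the mouse as a replicate block, *Ccne1* passed as well, which made 2 members.

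**Figure D1:**
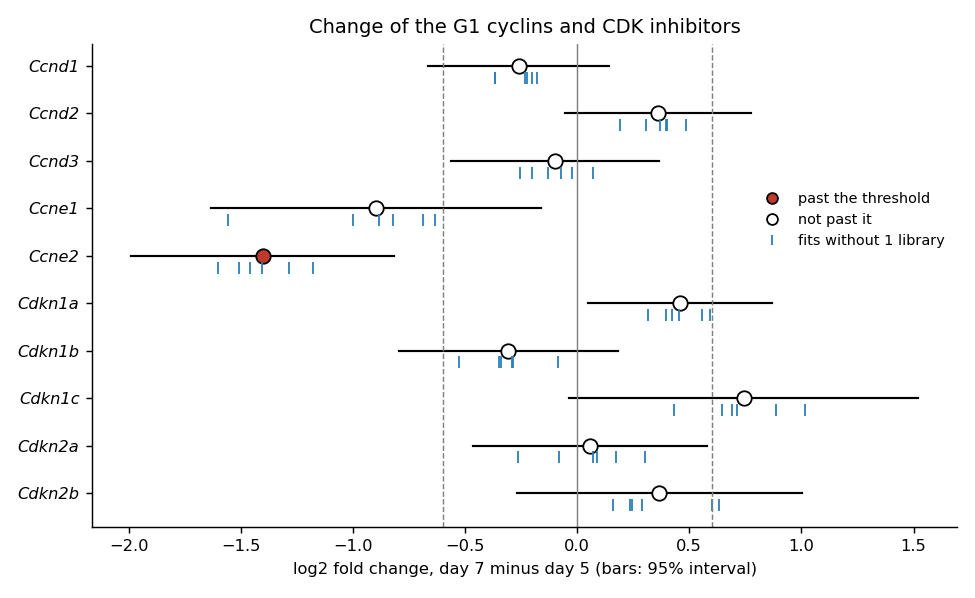
Fitted log2 fold change (day 7 minus day 5) of each member, with 95% intervals as bars, the threshold of 0.6 as dashed lines and the 6 fits that each leave out 1 library as blue ticks. *Ccne2* at -1.40 is the filled point, and its 6 ticks lie between -1.60 and -1.18, while those of *Cdkn2a* and *Ccnd3* lie on both sides of 0.

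Levels within the set spanned a wide range. QuantSeq gives about 1 read position per transcript end, so CPM was compared between genes without division by gene length. On day 5, *Ccnd2* (2516 ± 168 CPM, SD, n = 3) and *Ccnd1* (2139 ± 297 CPM) stood first and second, with ranges that overlapped. *Cdkn1a*, *Cdkn2a* and *Cdkn1b* followed, and *Cdkn1c* was lowest at 6.54 ± 1.13 CPM. By mean level over all tested genes, *Ccnd2* ranked 16 on day 5 and 11 on day 7, and *Ccnd1* ranked 19 and 28. Neighbours in the order overlapped on day 5 for *Cdkn1b* and *Ccnd3* and for *Ccne1* and *Cdkn2b*. On day 7, *Ccnd2* and *Ccnd1* no longer overlapped, and the lowest places, *Cdkn2b*, *Ccne2*, *Ccne1* and *Cdkn1c*, overlapped each with the next. *Ccnd3* and *Cdkn1b* overlapped on day 7 too, with their means in the reverse of the day 5 order.

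**Figure D2:**
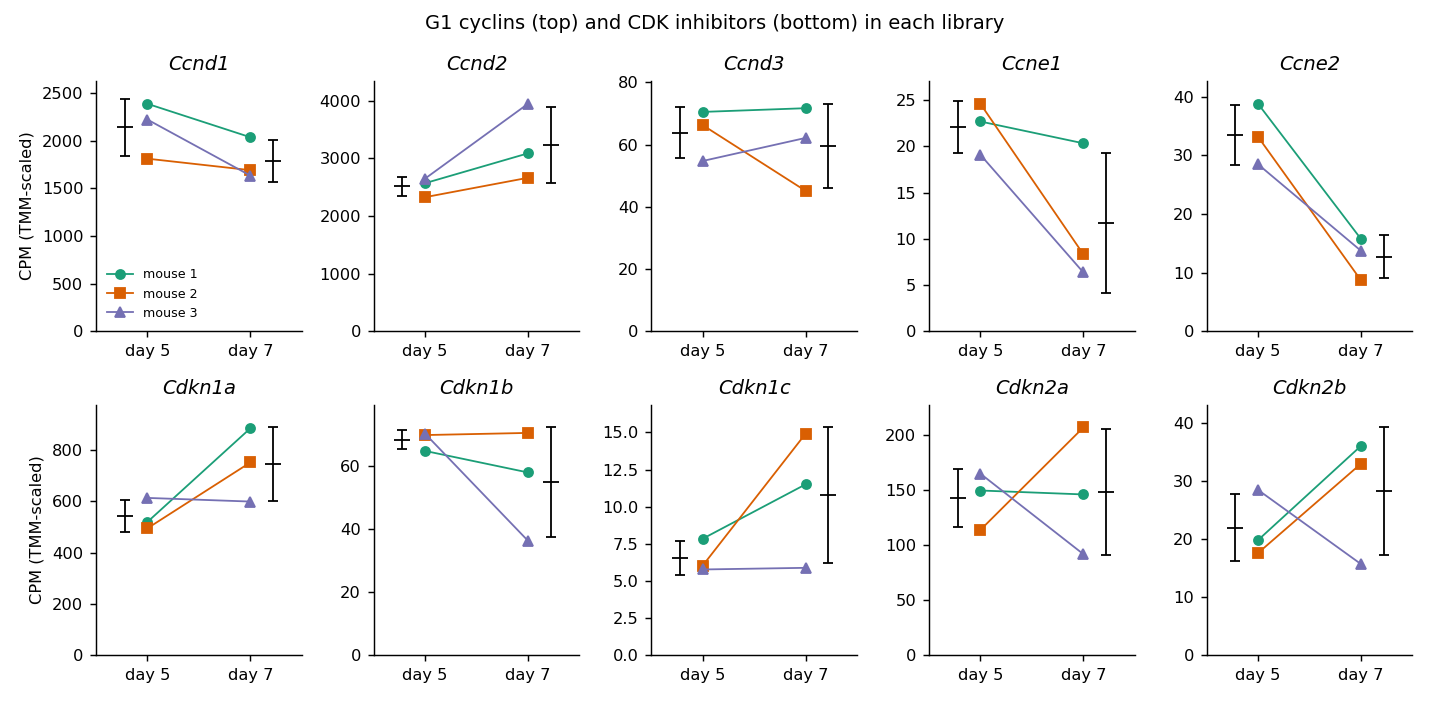
Level of each member in CPM (TMM-scaled library sizes, linear axes from 0) on day 5 and day 7, with a line joining the libraries of 1 mouse and black bars for the mean ± SD of 3 libraries. *Ccne2* lies lower on day 7 in all 3 mice, whereas *Cdkn2a* and *Cdkn2b* lie higher in mouse 2 and lower in mouse 3.

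The D-type cyclins are the mitogen-responsive subunits of CDK4 and CDK6 kinases. *Ccnd2* (ENSMUSG00000000184, chr6:127102125-127129156, minus strand, GRCm39) stood at 2570, 2327 and 2649 CPM in mice 1 to 3 on day 5. Its day 7 levels were 3089, 2664 and 3949 CPM. On this TMM scale every day 7 library lay above every day 5 library, with mouse 3 the highest on both days. The gap was narrow, between 2649 CPM (day 5, mouse 3) and 2664 CPM (day 7, mouse 2). These 2 libraries held 7357 of 2652710 and 7676 of 2837397 counts. Relative to such raw totals the day 5 library was the higher, so the separation depends on the scaling. Its fitted change of 0.36 ± 0.20 on the log2 scale (SE, 95% interval -0.05 to 0.78) did not pass (edgeR adjusted p = 0.261).

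*Ccnd1* (ENSMUSG00000070348, chr7:144483668-144493662, minus strand) stood at 2386, 1810 and 2221 CPM on day 5 and at 2035, 1690 and 1633 CPM on day 7. It was lower in all 3 mice, but the ranges of the days overlapped. The fitted log2 fold change was -0.26 ± 0.19 (95% interval -0.66 to 0.14, edgeR adjusted p = 0.409). *Ccnd3* (ENSMUSG00000034165, chr17:47815767-47910624, plus strand) was far below the other D-type cyclins, at 70.5, 66.3 and 54.7 CPM on day 5 and 71.7, 45.1 and 62.2 CPM on day 7. Mice 1 and 3 were higher on day 7 and mouse 2 was lower, and the log2 fold change was -0.10 ± 0.22 (edgeR adjusted p = 0.828), with a sign that turned without the day 7 library of mouse 2 (0.07).

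The balance between the first 2 D-type cyclins was given by their count ratio within a library, which no scaling of libraries can alter. The ratio of *Ccnd2* to *Ccnd1* was 1.08, 1.29 and 1.19 on day 5. It was 1.52, 1.58 and 2.42 on day 7, and all 3 lay above every day 5 value. *Ccnd2* accounted for 51.1% to 55.4% of D-type cyclin counts on day 5 and 59.5% to 70.0% on day 7, and *Ccnd3* for 1.03% to 1.58% throughout. These ratios and shares are descriptions of 3 libraries per day and were not tested. Summed D-type cyclin level overlapped between the days, at 4204 to 5027 CPM on day 5 and 4399 to 5644 CPM on day 7.

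**Figure D3:**
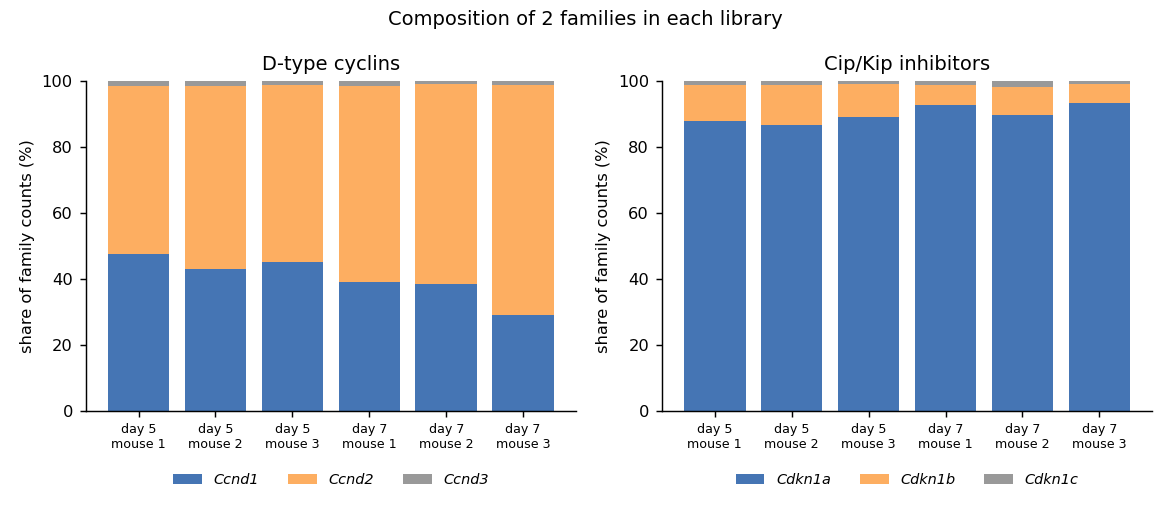
Share of each gene in the counts of the D-type cyclins (left) and of the Cip/Kip inhibitors (right), in percent of the family's counts, 1 bar per library. *Ccnd2* takes 59.5% to 70.0% of D-type counts in the day 7 bars against 51.1% to 55.4% in the day 5 bars, and *Cdkn1a* takes at least 86.7% of Cip/Kip counts in every bar.

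The transcript ends of the D-type cyclins are not free of other genes. The last 500 bases of *Ccnd1* lie opposite *LTO1*, which had 9 to 39 counts per library, against 3336 to 6167 for *Ccnd1*. *Ccnd3* overlaps *Bysl*, a ribosome assembly factor with 59 to 113 counts, over 369 bases on the opposite strand, and *Ccnd3* itself had 127 to 187 counts. The end of *Ccnd3* also matches its pseudogene *Ccnd3-ps* over 502 aligned bases at 96.8% identity, so its counts are uncertain. Whether counting used strand is not given in the sources used here, and without strand such pairs cannot be told apart.

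The E-type cyclins bind and activate CDK2 at the passage from G1 to S phase. *Ccne2* (ENSMUSG00000028212, chr4:11190303-11204947, plus strand) stood at 38.8, 33.1 and 28.5 CPM on day 5, from 94, 66 and 79 counts. Its day 7 levels were 15.7, 8.68 and 13.7 CPM, from 41, 25 and 28 counts. No day 7 library reached the lowest day 5 library. Mean levels were 33.4 ± 5.16 and 12.7 ± 3.63 CPM (SD, n = 3 each), and the log2 fold change was -1.40 ± 0.28 (95% interval -1.99 to -0.82, edgeR adjusted p = 0.00265). The call held in all 17 alternative analyses, with log2 fold changes from -1.60 to -1.18 and adjusted p from 2.63e-05 to 0.0315. Among them, the main fit without a fold minimum could not lose the call. *Ints8*, an Integrator subunit on the opposite strand, shares up to 474 bases of exon with *Ccne2*. Its transcripts match 138 of the last 500 bases of *Ccne2*. *Ints8* had 50, 28 and 41 counts on day 5 and 38, 32 and 18 on day 7, close to those of *Ccne2* on day 7. Without a stated strand setting, reads of *Ccne2* and *Ints8* cannot be told apart where they overlap.

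*Ccne1* (ENSMUSG00000002068, chr7:37797404-37808264, minus strand) stood at 22.7, 24.6 and 19.1 CPM on day 5 and at 20.3, 8.33 and 6.36 CPM on day 7. Mice 2 and 3 were well below their day 5 levels, while mouse 1 stayed within the day 5 range. The log2 fold change was -0.90 ± 0.35 (95% interval -1.63 to -0.16), and it did not pass (edgeR adjusted p = 0.105). The call turned with the fit. *Ccne1* passed with the mouse as a replicate block (-1.02, adjusted p = 0.00887), without the filter on low counts (-0.90, adjusted p = 0.0294) and without the day 7 library of mouse 1 (-1.56, adjusted p = 0.00203). Over all 17 alternatives its adjusted p ranged from 0.00203 to 0.334. The ratio of *Ccne1* to *Ccne2* counts was 0.585, 0.742 and 0.671 on day 5 and 1.29, 0.960 and 0.464 on day 7, with no common direction.

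Promoter windows of 300 bases (250 before to 50 after a RefSeq start) were given for 6 of the 10 members, 9 windows in all, from a RefSeq table of build GRCm38.p6. None was given for *Ccne2*. Positions below were found by exact match to GRCm39, with 1 match each. The window of *Ccne1* is shown because an E-type cyclin is a textbook E2F target, and it holds the E2F core TCCCGC, searched on both strands, at -47 and at -7 relative to the start. The capitals mark these cores, at chr7:37806866-37807165 on the minus strand, and the first overlaps a GC box (GGGCGG).

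Ccne1: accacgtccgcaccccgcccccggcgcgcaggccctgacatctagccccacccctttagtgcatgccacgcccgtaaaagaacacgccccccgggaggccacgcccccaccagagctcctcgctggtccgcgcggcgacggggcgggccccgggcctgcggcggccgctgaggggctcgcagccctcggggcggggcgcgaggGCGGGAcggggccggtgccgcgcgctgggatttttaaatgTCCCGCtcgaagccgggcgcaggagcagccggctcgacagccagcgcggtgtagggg

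The core TCCCGC occurs in 20% of all 32851 windows of the table, and the GC box in 35.7%. The *Ccne1* window is 76% G and C, and the share among windows of like composition was not taken. A match describes letters in the window and is no evidence of binding.

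Summed E-type cyclin level was 55.6 ± 7.20 CPM on day 5 and 24.4 ± 10.2 CPM on day 7, without overlap between the days. *Ccne2* made up 57.4% to 63.1% of the summed counts on day 5, and *Ccne1* alone overlapped between the days. Targets of E2F beyond the cyclins form a list of replication genes. Of 20 E2F targets of G1/S, 15 fell, 0 rose and 5 did not pass, with a median log2 fold change of -1.05. Thymidylate synthase *Tyms* (-1.65 ± 0.25, edgeR adjusted p = 0.00031), the ribonucleotide reductase subunit *Rrm2* (-1.64 ± 0.26, adjusted p = 0.000382) and the replicative helicase subunits *Mcm4* (-1.36 ± 0.24) and *Mcm3* (-1.13 ± 0.22) had the smallest p of the list. The count of 15 dropped to 6 without the day 5 library of mouse 2, to 9 without that of mouse 3 and to 8 without the day 7 library of mouse 2. Of 5 S and mitotic cyclin genes with *Cdk1*, 4 fell with a list median of -1.0. These were *Ccna2* (-0.91 ± 0.21, cyclin A2), *Ccnb1* (-1.01 ± 0.21, cyclin B1), *Ccnf* (24.1 ± 4.86 to 12.0 ± 1.24 CPM, cyclin F) and *Cdk1* itself (-1.09 ± 0.25). That count was 0 without the day 5 library of mouse 2 and 2 without the day 7 library of mouse 2. The cycling markers given above moved in the same direction, and their part in these values was not tested.

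Among 8001 named protein-coding genes of at least 10 CPM, the genes whose centred log2 CPM over the 6 libraries lay nearest to *Ccne2* included *Kif11* and *Asf1b*. *Kif11*, a mitotic kinesin, lay at a root mean square distance of 0.0769 log2 units, and *Asf1b*, a histone chaperone, at 0.110. Distances this small over 6 libraries describe the profile only.

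Cip/Kip inhibitors bind cyclin-CDK complexes, with p21 best known as a target of p53. *Cdkn1a* (ENSMUSG00000023067, chr17:29309936-29319701, plus strand) stood at 519, 494 and 613 CPM on day 5 and at 885, 752 and 599 CPM on day 7. Mice 1 and 2 were higher on day 7 by 0.77 and 0.60 on the log2 scale, and mouse 3 differed by -0.03. Its fitted log2 fold change of 0.46 ± 0.20 (95% interval 0.05 to 0.87) did not pass (edgeR adjusted p = 0.141). Without the day 7 library of mouse 3 it was 0.59 with an adjusted p of 0.0103, still under the fold minimum of 0.6.

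The upstream window of *Cdkn1a* (chr17:29309703-29310002, plus strand) is shown because the p53 target list below is read beside this gene. Capitals mark matches to the p53 half-site, at -73 and -51 relative to this start.

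Cdkn1a: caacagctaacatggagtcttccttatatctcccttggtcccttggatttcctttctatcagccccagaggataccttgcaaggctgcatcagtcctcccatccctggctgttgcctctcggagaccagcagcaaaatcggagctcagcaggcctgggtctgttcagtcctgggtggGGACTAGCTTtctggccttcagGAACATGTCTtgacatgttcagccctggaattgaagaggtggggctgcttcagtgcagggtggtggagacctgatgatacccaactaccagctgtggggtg

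A p53 half-site was found in 8.36% of all windows. The window of the other *Cdkn1a* start held no such match.

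Among 16 other p53 targets, 4 passed as higher and 0 as lower, with a list median of 0.24. Days did not overlap for 7 that were higher and 2 that were lower, beside 15.4% and 15.5% of all genes. The 2 lower were *Mdm2* (-0.47 ± 0.20) and *Ccng1* (-0.52 ± 0.18), and neither passed. *Btg2* (1.70 ± 0.26, edgeR adjusted p = 0.000264), an antiproliferative factor, and *Sesn2* (1.64 ± 0.26, adjusted p = 0.000356), a stress-induced regulator of mTORC1, passed in all 17 alternatives. *Pmaip1* (1.13 ± 0.24), a BH3-only protein, was lost in 1 of them and *Gdf15* (1.28 ± 0.41), a stress cytokine, in 11. The count of 4 was 2 without the day 5 library of mouse 2 and 7 without the filter. Of 14 regulators of Cip/Kip transcription, 2 rose and 0 fell, with a median of 0.16. They were the growth factor genes *Tgfb2* (2.13 ± 0.22, from 29.2 ± 6.72 to 128 ± 7.48 CPM) and *Tgfb1* (1.25 ± 0.35, from 5.70 ± 1.46 to 14.0 ± 4.39 CPM), and 5 of the 14 passed without the day 7 library of mouse 3. *Tgfb1* was lost when any of the 3 day 5 libraries was left out, which left 1 call. Days did not overlap for 4 of these 14 that were higher and 2 that were lower. The 2 lower were *Trp53* (-0.56 ± 0.23), the p53 gene itself, and *Tgfbr2* (-0.43 ± 0.24), and neither passed.

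*Cdkn1b* (ENSMUSG00000003031, chr6:134897364-134902476, plus strand) stood at 64.7, 69.8 and 70.2 CPM on day 5, the tightest values of the set. Its day 7 levels were 57.9, 70.5 and 36.2 CPM, with mouse 3 the lowest and mouse 2 at its day 5 level. A log2 fold change of -0.31 ± 0.23 (95% interval -0.79 to 0.18, edgeR adjusted p = 0.424) was fitted. The count ratio of *Cdkn1a* to *Cdkn1b* was 8.02, 7.09 and 8.73 on day 5 and 15.3, 10.7 and 16.5 on day 7, so that all 3 mice showed a higher ratio on day 7. This ratio was not tested.

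The level of p27 protein is set in large part by the ubiquitin ligase subunit SKP2, itself an E2F target. *Skp2* fell by 1.72 ± 0.36 on the log2 scale (edgeR adjusted p = 0.00354), with mean levels of 14.4 ± 2.87 CPM on day 5 and 4.34 ± 1.55 CPM on day 7, and passed in all 17 alternatives. It was the 1 gene to pass among 12 ubiquitin ligase subunits for G1 cyclins and inhibitors, whose median was 0.04. Counts of 3 were reached with the replicate block, without the filter and without the day 7 library of mouse 1, and 2 passed when only library totals were used for scaling.

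*Cdkn1c* (ENSMUSG00000037664, chr7:143012069-143014806, minus strand) was the rarest member, at 7.84, 6.02 and 5.76 CPM on day 5 and 11.5, 14.9 and 5.87 CPM on day 7. These values rest on 12 to 43 counts per library. Mice 1 and 2 were above the day 5 range on day 7 and mouse 3 was within it. The log2 fold change was 0.74 ± 0.37 (95% interval -0.04 to 1.52, edgeR adjusted p = 0.216). It passed only without the day 7 library of mouse 3 (1.01, adjusted p = 0.0285), and its adjusted p over the 17 alternatives reached 0.582.

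*Cdkn1c* is imprinted and lies in a domain whose paternal copy is silenced by the long noncoding RNA *Kcnq1ot1*. Of 11 other genes of that domain, 9 were tested, 0 rose and 2 fell, with a median of -0.10. *Kcnq1ot1* stood at 43.3, 44.7 and 35.3 CPM on day 5 and at 8.44, 6.59 and 7.34 CPM on day 7. Its day 7 levels were all far below those of day 5, and it fell by 2.45 ± 0.27 on the log2 scale (edgeR adjusted p = 9.36e-06) and passed in all 17 alternatives. The imprinted growth regulator *Phlda2* fell by 1.27 ± 0.33 on the log2 scale (adjusted p = 0.0161), a call lost without the day 5 library of mouse 2 or mouse 3 or the day 7 library of mouse 2. *Kcnq1*, the channel gene in which *Kcnq1ot1* is antisense, had a log2 fold change of 0.83 ± 0.32 (adjusted p = 0.0996). *Slc22a18* (0.28), *Nap1l4* (0.18), *Osbpl5* (-0.22), *Cd81* (-0.10), *Tssc4* (-0.34) and *Ascl2* (0.47) did not pass, and *Tspan32* and *Trpm5* had no count. Without a stated strand setting, reads of *Kcnq1* and *Kcnq1ot1* cannot be told apart where they overlap.

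INK4 inhibitors bind CDK4 and CDK6 and keep D-type cyclins from activating them. *Cdkn2a* (ENSMUSG00000044303, chr4:89192708-89212890, minus strand) makes p16 and, from an upstream start and another reading frame, p19ARF, a regulator of p53 stability. Both transcripts share their 3′ end, so 3′ reads cannot separate them. The windows of both starts are shown, first the upstream one (chr4:89212807-89213106) and then the downstream one (chr4:89200380-89200679), both on the minus strand. Capitals mark matches to the E2F core TCCCGC or to TTTCCCGC, which contains it.

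Cdkn2a upstream start: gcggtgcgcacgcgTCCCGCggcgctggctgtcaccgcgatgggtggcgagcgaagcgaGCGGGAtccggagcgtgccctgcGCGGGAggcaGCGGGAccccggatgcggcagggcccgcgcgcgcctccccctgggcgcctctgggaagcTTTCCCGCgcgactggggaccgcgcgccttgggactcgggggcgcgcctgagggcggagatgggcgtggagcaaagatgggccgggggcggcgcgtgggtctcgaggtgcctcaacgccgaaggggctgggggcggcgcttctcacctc

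Cdkn2a downstream start: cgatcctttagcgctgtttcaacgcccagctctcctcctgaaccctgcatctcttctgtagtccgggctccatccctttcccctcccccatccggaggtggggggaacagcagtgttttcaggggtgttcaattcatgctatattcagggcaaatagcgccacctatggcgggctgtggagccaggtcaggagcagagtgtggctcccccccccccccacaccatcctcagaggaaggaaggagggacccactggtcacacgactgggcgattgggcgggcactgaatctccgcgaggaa

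The upstream window holds TTTCCCGC at -99, whose core lies at -97, and 4 further cores, at -236, -191, -168 and -158. The downstream window holds none. TTTCCCGC or one of its variants TTTCGCGC, TTTGCCGC and TTTGGCGC occurs in 2.26% of all windows. The upstream window is 77% G and C and the downstream one 60.3%, and windows of like composition were not compared.

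*Cdkn2a* stood at 149, 113 and 165 CPM on day 5 and at 146, 207 and 91.5 CPM on day 7. By mouse the log2 difference between the days was -0.03, 0.86 and -0.84, so that no common direction was seen. Its fitted log2 fold change was 0.06 ± 0.25 (95% interval -0.46 to 0.58, edgeR adjusted p = 0.930). *Cdkn2b* (ENSMUSG00000073802, chr4:89223204-89229276, minus strand), the neighbouring gene, stood at 19.8, 17.6 and 28.5 CPM on day 5 and at 36.0, 33.0 and 15.7 CPM on day 7. Mice 1 and 2 were higher on day 7 by 0.84 and 0.88 on the log2 scale and mouse 3 differed by -0.83. The log2 fold change was 0.37 ± 0.30 (95% interval -0.27 to 1.00, edgeR adjusted p = 0.472). *Cdkn2a* had 4.04 to 7.54 counts for each count of *Cdkn2b* in all 6 libraries.

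The other INK4 genes, *Cdkn2c* (p18) and *Cdkn2d* (p19INK4d), had log2 fold changes of 0.05 ± 0.39 and 0.02 ± 0.34, and neither passed. Of 11 Polycomb and other regulators of the *Cdkn2a*-*Cdkn2b* locus, 0 rose and 1 fell, with a median of -0.24. This was *Hmga2*, a chromatin factor of growing cells, with mean levels of 696 ± 66.9 CPM on day 5 and 401 ± 161 CPM on day 7 (a difference of -0.79 ± 0.23 in log2, edgeR adjusted p = 0.0334). The call was lost without any of the 3 day 5 libraries, without the day 7 library of mouse 2 and with the filterByExpr filter, and 2 genes passed without the day 7 library of mouse 1.

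The inhibitors varied more between mice on day 7 than on day 5. Of 5 inhibitors, 3 were higher on day 7 in mouse 1, 5 in mouse 2 and 1 in mouse 3, beside 50.1%, 51.6% and 50.0% of genes of at least 10 CPM in the same mice. The day 7 library of mouse 3 was the lowest of all 6 libraries for 5 of the 10 members, *Ccne1*, *Ccnd1*, *Cdkn1b*, *Cdkn2a* and *Cdkn2b*, beside 27.2% of genes of at least 10 CPM. The coefficient of variation was larger on day 7 than on day 5 for 9 of 10 members, all but *Ccnd1*, beside 80.2% of genes of at least 10 CPM, so that this spread is shared with most genes at such levels.

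Partners of the G1 cyclins were read from a list of 8 kinases and activators, of which 1 rose and 2 fell, with a median of -0.37. *Cdk4* (0.02 ± 0.21) and *Cdk6* (-0.21 ± 0.23, from 477 ± 20.8 to 413 ± 166 CPM), the partners of D-type cyclins, did not pass. *Cdk2*, the partner of E-type cyclins, was lower in every day 7 library than in any day 5 library (11.3 ± 0.987 to 6.24 ± 4.98 CPM), but its day 7 library of mouse 3 held 1 count and the log2 fold change of -0.78 ± 0.48 did not pass (edgeR adjusted p = 0.315). The subunits of the CDK-activating kinase went apart, with *Ccnh* (-0.81 ± 0.25, adjusted p = 0.0370) lower, *Mnat1* (0.83 ± 0.19, adjusted p = 0.00824) higher and *Cdk7* (-0.52 ± 0.26, adjusted p = 0.215) not past the threshold. *Cdc25a*, the phosphatase that activates CDK2, fell (-0.78 ± 0.23, adjusted p = 0.0369), and the chaperone *Cdc37* had a log2 fold change of -0.03. The 3 calls of this list were 0 without the day 5 library of mouse 2 or mouse 3 and 1 without the day 5 library of mouse 1 or the day 7 library of mouse 2.

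Pocket proteins, E2F and DP factors and MuvB subunits sit between the kinases and the targets. Of 18 listed, 17 were tested, 0 rose and 3 fell, with a median of -0.62. They were the pocket protein gene *Rbl1* (-1.06 ± 0.25, edgeR adjusted p = 0.00832), the atypical repressor *E2f8* (-1.07 ± 0.26, adjusted p = 0.0115) and *E2f4* (-0.89 ± 0.27, adjusted p = 0.0372). The count was 6 with the replicate block and 5 without the day 7 library of mouse 1. It was 0 without the day 5 library of mouse 1 or the day 7 library of mouse 2, and 1 without the day 5 library of mouse 2.

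Of 12 mitogen and Wnt regulators of D-type cyclins, 10 were tested, 2 rose and 1 fell, with a median of 0.17. *Jun*, a component of AP-1, had mean levels of 111 ± 17.4 CPM on day 5 and 571 ± 147 CPM on day 7, rose by 2.36 ± 0.23 in log2 (edgeR adjusted p = 2.33e-06) and passed in all 17 alternatives. *Axin2*, a Wnt target and inhibitor, passed as higher (1.09 ± 0.32, adjusted p = 0.0300). Mouse 3 did not share this, at 16.6 CPM on day 5 and 16.2 CPM on day 7. *Fosl1*, another AP-1 component, fell (-1.22 ± 0.34, adjusted p = 0.0237). The calls of *Axin2* and *Fosl1* were lost when any day 5 library or the day 7 library of mouse 2 was left out, which left *Jun* alone. Both were also lost after thinning to the smallest library. *Axin2* was lost further with filterByExpr, with voom and without the day 7 library of mouse 1.

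**Figure D4:**
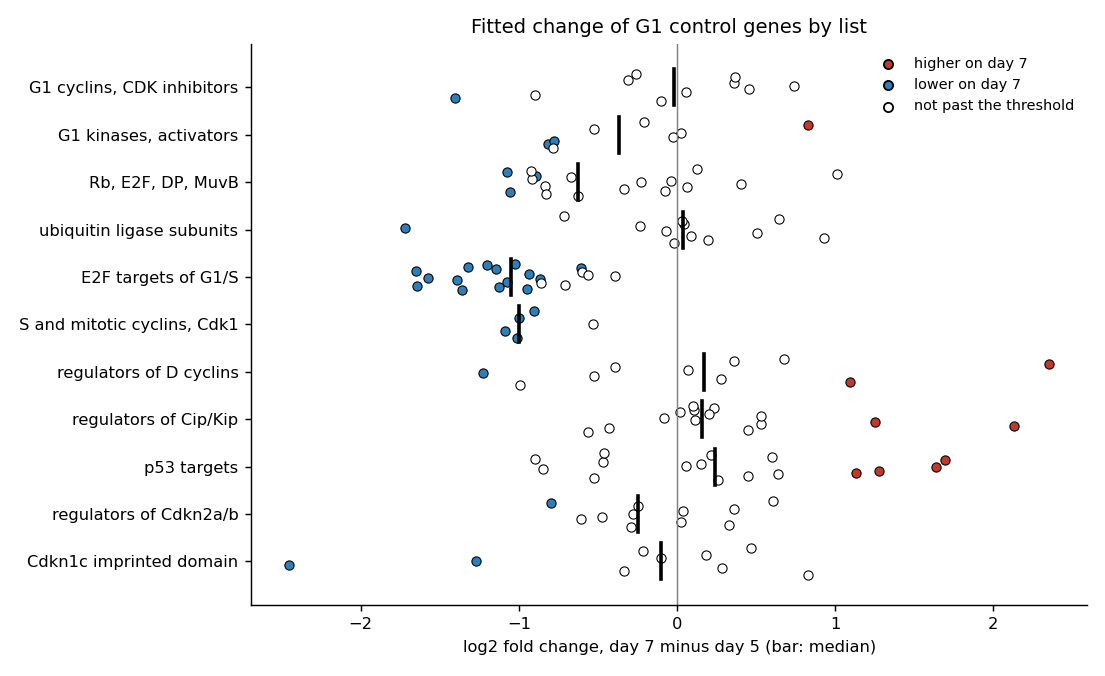
Fitted log2 fold change (day 7 minus day 5) of every tested gene in 11 lists, red where it rose, blue where it fell and white where it did not pass, with a black bar at each list's median. The E2F targets sit left of 0 with a median of -1.05, whereas the G1 cyclins and CDK inhibitors lie on both sides with a median of -0.02.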

How the data were processed

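RNA was measured in 6 libraries of mSGOs, 3 per day. The deposited files hold raw read counts per Ensembl gene ID, which the authors made from reads aligned to GRCm39. Per the labels they used edgeR. The aligner, counter, annotation release and strand setting are not given in the sources used here. The 5 entries per file that name no gene (9.12% to 14.4% of reads) were left out. GENCODE vM39 gave names for 43465 of 47643 IDs (91.2%).

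The 15792 genes with 1 or more counts in 2 or more libraries were tested with edgeR 4.0.16 in R 4.3.3 (TMM, glmQLFit and glmQLFTest, two-sided, robust = FALSE, day as the only term). A gene passed when its Benjamini-Hochberg adjusted p was below 0.05 and its log2 fold change was beyond 0.6 in either direction. CPM relate counts to TMM-scaled library sizes. Intervals and floors cover the model's or counting error only. The fit was tested on simulated data that gave both days the same spread. The biological coefficient of variation of the real libraries was 0.09 on day 5 and 0.29 on day 7. Such simulated data cannot check the fit under that difference. Groups came from the sample titles. The mouse number pairs libraries because the titles name the same mouse on both days, whereas deviations of paired libraries correlated at 0.14, -0.10 and 0.16 over 8171 genes, and the day 7 library of mouse 2 correlated best with the day 5 library of mouse 1 (0.12).

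All 10 members are named. From each pathway list, the passing genes of lowest p are named, at most 4 per list and each averaging 5 CPM or more, and the kinase, INK4 and *Cdkn1c* domain lists in full. Genes lower on day 7 without overlap are also named for the p53 target and Cip/Kip regulator lists. For the member past the threshold, the 3 nearest profiles (log2 CPM, prior count 2) were taken, of which 1 is not reported here. The members and lists were chosen with earlier results of these data known. The marker lists not described in the report were acinar cells, with 3 of 8 tested and 10.4 to 35.2 summed CPM on day 7 beside 6.02 to 10.4 on day 5, and erythroid cells, with 1 count in all libraries. Alternatives were other scalings and filters, no fold minimum, thinning, limma 3.58.1 (voom), DESeq2 1.42.0, robust fitting, a replicate block for the mouse and leaving out each library. The alternative without a fold minimum reuses the main fit, so a call of the main fit cannot be lost in it.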

Additional observations from a re-analysis of the deposited data

How the results depend on the processing

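Of 170 member fold changes over 17 alternatives, 161 kept their direction and side of the threshold, 4 newly passed, 0 were lost and 5 changed sign. In the alternative without a fold minimum, which reuses the main fit, no call could be lost and no sign could change. The number of members past the threshold was 2 without the filter and 2 with the replicate block, and 1 to 2 when 1 library was left out (2 without the day 7 library of mouse 1 or mouse 3). *Ccnd3* ranged from -0.257 to 0.0717 when 1 library was left out, above 0 only without the day 7 library of mouse 2. *Cdkn2a*, at 0.06 in the main fit, was below 0 with library totals only (-0.024) and with the replicate block (-0.0017). It was also below 0 without the day 5 library of mouse 2 (-0.08) or the day 7 library of mouse 2 (-0.26). Its range over the 6 fits without 1 library was -0.26 to 0.30. In all genes tested, 794 to 2575 passed when 1 library was left out, beside 1901 with all 6. Scaling by library totals alone brought the median log2 fold change to -0.10 from -0.01 and gave 950 higher and 1008 lower genes, 48.5% higher beside 60.0%. With the pairing by mouse, the block changed no member's call other than that of *Ccne1*. For a fit that leaves 2 libraries on a day, fewer samples enter. The cause of the other changes was not tested. Depth limits *Cdkn1c*, *Ccne1*, *Ccne2* and *Cdkn2b*, each under 100 counts per library.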
